A study of Mus musculus with 16 samples.

Results

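The Reg family lectins studied here are the products of 5 genes, Reg1, Reg3a, Reg3b, Reg3g and Reg4, chosen by their symbols in a deposited table of 20072 genes. All 5 had a row, and all 5 passed the filter on low values (a deposited value of at least 1 in at least 4 libraries) together with 14089 genes in all. The 16 bulk libraries were each made from 5000 pooled cells sorted out of small intestine, and the donors were untreated Tph1-CFP mice aged 8 to 16 weeks. Every mouse carried the Tph1-CFP reporter, so the sorting signal is a fluorescent protein tied to Tph1, the gene of the enzyme that sets the pace of serotonin production outside the brain. The 4 groups, with 4 libraries each, were CFP-positive enterochromaffin (EC) cells of the crypt, CFP-negative epithelial cells of the crypt (crypt epi), EC cells of the villus and CFP-negative epithelial cells of the villus (villus epi). The labels do not say which libraries came from separate mice, so p values measure the spread between these libraries, some of which may be technical.

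Reg proteins are small secreted proteins built on a C-type lectin fold. Reg3g and Reg3b act on bacteria in the mucus layer, where Reg3g binds peptidoglycan of Gram-positive species and helps to keep microbes away from the epithelium. Their transcription in enterocytes and Paneth cells depends on interleukin 22 acting through STAT3 and on microbial signals relayed by Myd88. Reg1 was first described in regenerating pancreatic islets and is also made by the gut epithelium, while Reg4 is a more distant member that is used as a marker of secretory and endocrine cells of the gut.

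On mm10, 4 of the 5 genes lie in a cluster on chromosome 6 that spans 98.2 kb (78370657 to 78468872) and also holds the related genes Reg2 and Reg3d. Within it, Reg3b (ENSMUSG00000071356) occupies 78370657 to 78373466 on the plus strand and Reg3a (ENSMUSG00000079516) occupies 78380709 to 78383827 on the plus strand. Reg1 (ENSMUSG00000059654) follows at 78422711 to 78428667 on the plus strand, and Reg3g (ENSMUSG00000030017) closes the cluster at 78466269 to 78468872 on the minus strand. Reg4 (ENSMUSG00000027876) stands alone on chromosome 3, 98222156 to 98236748, plus strand.

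Because the family is related in sequence, the transcripts were compared for stretches that a short read could not assign. The 2 most similar transcripts among the members, those of Reg3b and Reg3g, were identical at 552 of 739 aligned bases (74.7%). In the GENCODE M21 transcripts, Reg3b and Reg3g shared 5 stretches of 31 bases, out of 1120 such stretches in Reg3b and 2164 in Reg3g, and these 5 overlap in a single run of 35 bases. No stretch of 31 bases was shared between any other pair of Reg genes, Reg2 and Reg3d included. Of 895 stretches in Reg1, 51 also occurred in transcripts of genes outside the family, and Reg3a, Reg3b, Reg3g and Reg4 had 0 such stretches. The run is shown here because it is the one place where Reg3b and Reg3g reads of that length cannot be told apart. It lies in the coding part of exon 2 in both genes, at chr6:78371230-78371264 (plus strand) in Reg3b and chr6:78468503-78468537 (minus strand) in Reg3g. Capitals mark the 35 shared bases and lower case the 12 bases on either side.
Reg3b: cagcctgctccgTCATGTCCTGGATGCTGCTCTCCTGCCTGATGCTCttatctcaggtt
Reg3g: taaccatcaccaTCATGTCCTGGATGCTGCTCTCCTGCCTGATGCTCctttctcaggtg

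Promoter windows are shown for Reg4, the member that was high in EC cells, and for Reg3g and Reg3a, from the members that were high in the other epithelial cells. Each window is the 250 bases before the RefSeq start on GRCm38.p6, and all 7 Reg genes matched an entry. Capitals mark matches to any of 4 motifs searched on both strands: the STAT motif TTCNNNGAA, the CDX motif TTTATG, the GATA motif AGATAA and the TATA motif TATAAAA. The windows lie at chr3:98221906-98222155 (plus strand) for Reg4, chr6:78468875-78469124 (minus strand) for Reg3g and chr6:78380459-78380708 (plus strand) for Reg3a.
Reg4: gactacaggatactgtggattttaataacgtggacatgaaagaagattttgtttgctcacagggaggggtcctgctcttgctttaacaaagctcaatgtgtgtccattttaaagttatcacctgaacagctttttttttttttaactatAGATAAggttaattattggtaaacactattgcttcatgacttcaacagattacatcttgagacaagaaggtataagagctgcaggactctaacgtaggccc
Reg3g: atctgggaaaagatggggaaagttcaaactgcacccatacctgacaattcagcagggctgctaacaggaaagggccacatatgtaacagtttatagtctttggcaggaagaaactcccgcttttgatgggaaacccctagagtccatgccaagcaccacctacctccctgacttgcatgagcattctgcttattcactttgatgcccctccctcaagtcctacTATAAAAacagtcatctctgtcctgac
Reg3a: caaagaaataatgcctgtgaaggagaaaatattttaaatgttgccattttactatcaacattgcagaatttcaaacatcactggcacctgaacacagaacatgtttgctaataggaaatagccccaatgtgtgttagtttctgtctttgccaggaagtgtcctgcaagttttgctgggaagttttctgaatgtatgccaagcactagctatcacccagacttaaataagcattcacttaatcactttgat

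The Reg4 window held 1 GATA match, 101 to 96 bases before the start, and the Reg3g window held 1 TATA match, 27 to 21 bases before the start. The Reg3a window held no match to these letters. Reg3b, whose window is not printed because 74 of its bases are exonic in GENCODE M21, had the STAT match TTCTTGGAA at 129 to 121 bases before the start, a CDX match at 172 to 167 and a TATA match at 29 to 23. Reg1, with 53 exonic bases in its window, had a TATA match at 30 to 24. Of the related genes, Reg2 had a TATA match at 30 to 24 and Reg3d a STAT match at 238 to 230. Over 32851 promoter windows of this length, the STAT motif was found in 7.02%, CDX in 10.8%, GATA in 9.99% and TATA in 4.98%. The windows of Reg3b and Reg3g were identical at 173 of 247 aligned bases, against 129 of 212 for Reg3g and Reg4.

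The deposited values are labelled FPKM, a unit that divides fragments by transcript length and by library size. On that reading, levels can be set beside each other between genes. How these values were scaled between libraries is not given, and read depth is unknown. Column totals ran from 731415 to 1415123. The summed level of 12 EC markers was 51853 to 61857 in the 8 EC libraries and 180 to 718 in the 8 epi libraries, so markers and sort labels went the same way. Villus epi replicate 2 stood apart, correlating with the rest of its group at a mean r of 0.812 over genes, against 0.923 to 0.926 for the other 3. Its summed stromal and endothelial markers were at 163, against 7.54 to 9.31 in the other villus epi libraries, and its T and intraepithelial lymphocyte markers were at 28.1, against 2.45 to 6.72. Mitochondrial transcripts took 5.26% of its total and 10.9% to 14.9% of the totals of the other villus epi libraries, against 2.23% to 4.32% in the 12 libraries of the other groups, so this share moves with every comparison that involves villus epi. The part of these markers and of the mitochondrial share in the results was not tested.

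The family fell into 2 patterns. Reg4 was far higher in EC cells than in the other epithelial cells at both sites, and Reg1, Reg3a, Reg3b and Reg3g were far lower. In these bulk samples, fewer cells of a type and less RNA per cell cannot be told apart. Among the 5 genes, Reg4 made up 98.6% to 99.9% of the summed Reg level in the 8 EC libraries, 14.7% to 29.6% in crypt epi and 1.03% to 3.30% in villus epi. The summed level of the 5 genes took 4.46% to 6.78% of the library total in crypt EC and 4.296% to 7.29% in villus EC. It took 0.564% to 0.842% in crypt epi and 0.228% to 0.715% in villus epi.

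**Figure D1:**
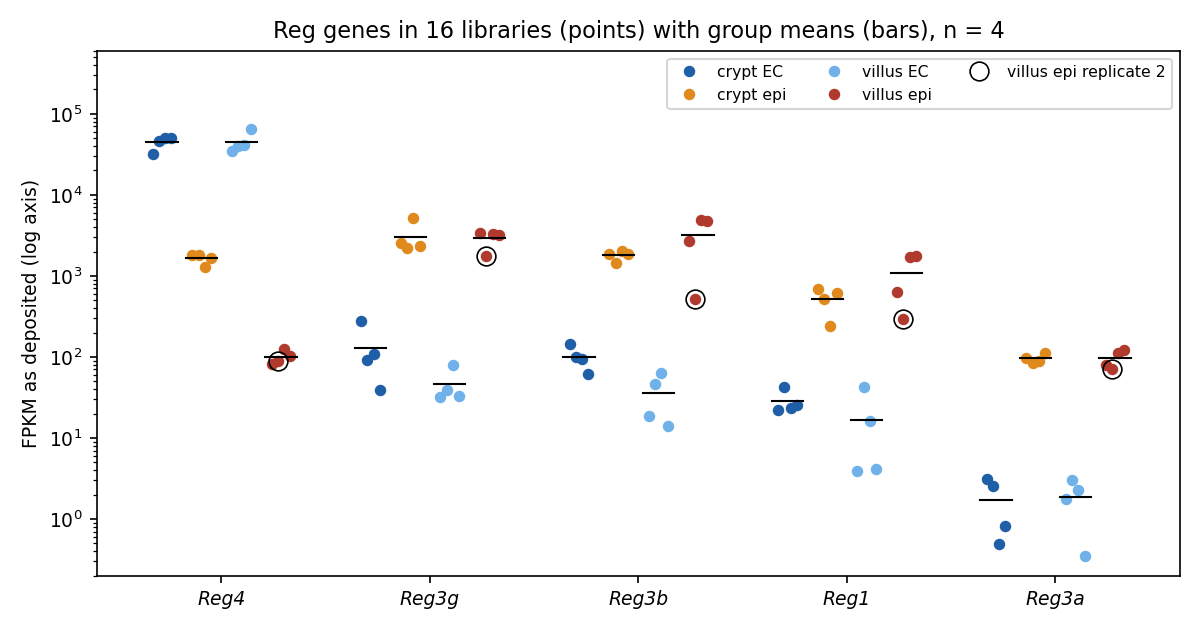
Deposited FPKM (log axis) of the 5 Reg genes in each of 16 libraries, with points for libraries, bars for the means of 4 libraries and a ring around villus epi replicate 2. Reg4 is highest in both EC groups, between 32209 and 64437, and the other 4 genes are highest in both epi groups.

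Reg4 is treated first, as the member of EC cells. In crypt EC it was at 32209, 45698, 50861 and 50278 in replicates 1 to 4, and in crypt epi at 1790, 1808, 1292 and 1682. In villus EC it was at 34529, 39635, 40794 and 64437, and in villus epi at 81.0, 89.6, 127 and 102. The lowest EC library was thus above the highest epi library at each site, and the 2 epi groups did not overlap either, with every crypt epi library above every villus epi library. Group means were 44761 ± 8681 (SD, n = 4) in crypt EC, 44849 ± 13340 in villus EC, 1643 ± 241 in crypt epi and 99.8 ± 20.0 in villus epi. In order of level, the 2 EC groups came first and did not differ beyond their spread, followed by crypt epi and then villus epi.

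Fold changes here are differences of mean log2(FPKM + 1) from limma, and a gene was called at a Benjamini-Hochberg adjusted p below 0.05 over all genes tested. Reg4 was 27.0-fold higher in crypt EC than in crypt epi (log2 fold change 4.76 ± 0.21 (SE), adjusted p = 8.5e-11) and 438-fold higher in villus EC than in villus epi (8.78 ± 0.21, adjusted p = 1.22e-13). The excess in EC was larger in the villus by 4.02 ± 0.29 log2 units (test of the difference, adjusted p = 7.64e-08), and by 3.97 without villus epi replicate 2. Between sites, Reg4 in EC differed by -0.02 log2 units (95% interval -0.46 to 0.43, adjusted p = 0.973). In epi it was 16.4-fold lower in the villus than in the crypt (-4.03 ± 0.21, adjusted p = 3.5e-10). Without villus epi replicate 2 that difference between sites was -3.99 and remained called.

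Reg4 in the CFP-negative cells was set beside the markers of EC cells. The sort selected against CFP and not against other endocrine cells. The 8 hormone genes listed for those cells summed to 1002 to 3394 in crypt epi and 1507 to 3539 in villus epi. In EC libraries they summed to 1843 to 9531 in the crypt and 52456 to 107447 in the villus. Which cells held the EC markers in the epi libraries was not tested. Crypt epi held Reg4 at 3.67% of its level in crypt EC, whereas Tph1 was at 0.0291%, the chromogranin gene Chga at 0.0705% and its relative Chgb at 0.180%. Among 10 EC markers with at least 100 FPKM in crypt EC, the median was 0.178%; 8 were below Reg4, among them Gch1 at 2.71% and Slc18a1 at 2.13%, and 2 were above it, the peptidase gene Cpe at 3.77% and the decarboxylase gene Ddc at 8.18%. In villus epi, Reg4 was at 0.223% of the villus EC level, and Tph1 at 0.329%, Chga at 0.477% and Chgb at 0.578%. All 10 EC markers at that level in villus EC were above Reg4 there, from 0.329% to 69.4%. So in the crypt Reg4 lay toward the upper end of the EC markers on this scale, level with Cpe, and in the villus below each of them.

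The ratio of Reg4 to Tph1 within a library does not depend on how a library was scaled. It was 8.76, 8.20, 8.25 and 8.17 in crypt EC and 2.54, 2.59, 2.71 and 3.75 in villus EC. In crypt epi it was 920, 984, 1762 and 956, and in villus epi 1.81, 1.03, 5.56 and 2.19. The ratio was thus higher in epi than in EC in the crypt, while in the villus the 2 cell types overlapped. Tph1, the gene behind the sorting reporter, was only at 1.95, 1.84, 0.733 and 1.76 in crypt epi. These values lie near the filter on low values, so the size of the crypt epi ratios is uncertain. Cells were sorted by the Tph1 reporter, so low Tph1 in CFP-negative libraries is partly set by the sort. Crypt EC libraries therefore kept the ratio within a narrow range although Reg4 itself ran from 32209 to 50861, because Tph1 was also lowest in replicate 1. The villus EC libraries had lower ratios at a like level of Reg4, since Tph1 was higher there (1.53 log2 units above crypt EC, limma adjusted p = 0.00142). This ratio was chosen after the values were seen and carries no test.

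**Figure D2:**
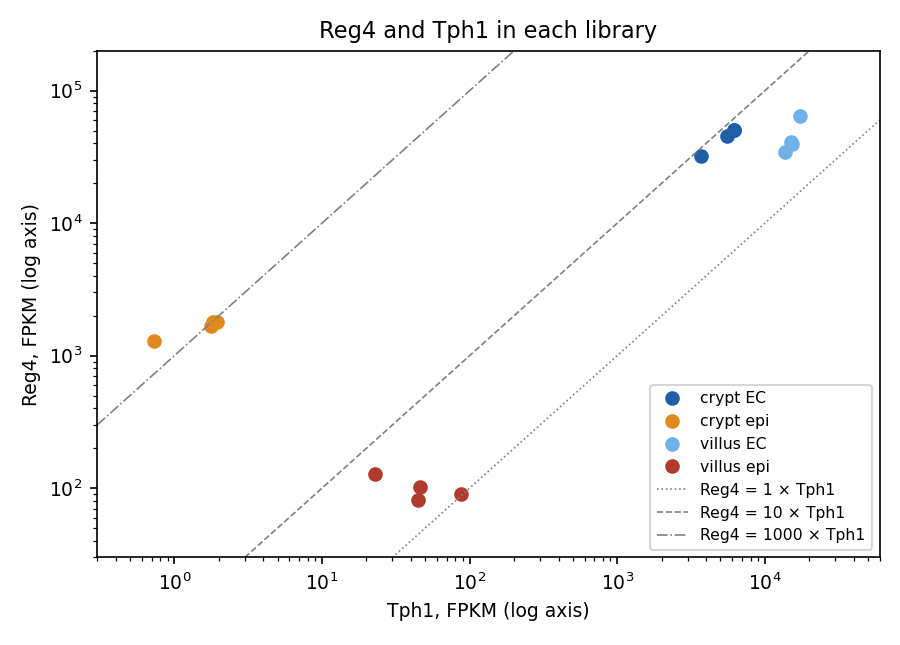
Reg4 against Tph1 in each library, both in FPKM on log axes, with lines at fixed ratios of Reg4 to Tph1. Crypt epi libraries lie near the uppermost line, at ratios of 920 to 1762, crypt EC at 8.17 to 8.76, and both villus groups at 1.03 to 5.56. Tph1 in crypt epi was at 0.733 to 1.95, near the filter on low values.

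Reg3g, the peptidoglycan-binding member, showed the reverse pattern. In crypt epi it was at 2542, 2224, 5156 and 2317, and in crypt EC at 274, 90.5, 109 and 38.6. In villus epi it was at 3378, 1740, 3305 and 3217, and in villus EC at 31.9, 39.2, 78.5 and 33.3. Every epi library was above every EC library, and the sites overlapped within each cell type. Crypt epi replicate 3 and crypt EC replicate 1 had the highest values of their groups, and villus epi replicate 2 the lowest of its group.

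Reg3b, the other well-studied antibacterial member, was at a similar level. In crypt epi its values were 1877, 1463, 2016 and 1855, and in crypt EC 145, 99.2, 95.2 and 62.1. In villus epi they were 2729, 521, 4880 and 4724, and in villus EC 18.8, 46.8, 63.6 and 14.2. Villus epi libraries thus ran over a wide range, with replicate 2 below all crypt epi libraries and the other 3 above them.

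Reg1 followed the same order of groups at lower levels. It was at 687, 524, 243 and 618 in crypt epi and at 21.9, 42.1, 23.6 and 25.5 in crypt EC. In villus epi it was at 639, 297, 1700 and 1736, and in villus EC at 3.88, 42.0, 16.2 and 4.10. Replicates 3 and 4 of villus epi were above all crypt epi libraries, while replicates 1 and 2 lay within their range.

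Reg3a, a close relative of Reg3b and Reg3g in sequence, had the lowest mean of the 5 genes in each of the 4 groups, close to that of Reg4 in villus epi. Its values were 97.6, 85.3, 88.1 and 112 in crypt epi and 78.5, 70.2, 113 and 123 in villus epi. In EC cells it was at 3.09, 2.55, 0.487 and 0.832 in the crypt and at 1.75, 3.07, 2.27 and 0.353 in the villus, near the filter on low values. The epi groups overlapped fully and had nearly equal means, 95.8 ± 12.1 in the crypt and 96.1 ± 25.7 in the villus (SD, n = 4).

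In the crypt, all 5 genes were called, 1 higher and 4 lower in EC cells, where 43.2% of all tested genes were called, 23.2% higher and 20.0% lower. The median of the 5 was -4.20 log2 units, against 0.05 over all tested genes. Reg3g was 28.0-fold lower in crypt EC (log2 fold change -4.81 ± 0.48, limma adjusted p = 7.99e-07) and Reg3a 38.4-fold lower (-5.26 ± 0.36, adjusted p = 1.04e-08). Reg3a was near the filter on low values in EC, so the size of its change is uncertain. It ran from -6.02 to -3.91 over the alternative settings, against -5.28 to -4.27 for Reg3g. The changes of Reg3b and Reg1 were -4.20 and -4.09 (adjusted p = 3.98e-05 and 0.00014). For each of the 5 genes the crypt EC and crypt epi libraries did not overlap, but the share of all tested genes without overlap was not counted. When all libraries were scaled to an equal total, 81.0% of the genes called in the crypt were higher in EC, against 53.6% on the deposited scale, and all 5 Reg genes kept their direction and call.

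In the villus, all 5 genes were again called, 1 higher and 4 lower in EC cells, where 62.2% of all tested genes were called, 40.6% higher and 21.6% lower. The median of the 5 was -6.01 log2 units, against 0.33 over all tested genes. Reg3b was 77.1-fold lower in villus EC (-6.27 ± 0.61, limma adjusted p = 2.47e-07), Reg1 74.4-fold lower (-6.22 ± 0.67, adjusted p = 8.96e-07) and Reg3g 64.5-fold lower (-6.01 ± 0.48, adjusted p = 2.58e-08). Reg3a was 35.6-fold lower (-5.15 ± 0.36, adjusted p = 5.21e-09), and ran from -5.88 to -3.86 over the alternative settings. Without villus epi replicate 2, Reg3b was at -7.00 and Reg1 at -6.73, Reg3g at -6.24, Reg3a at -5.29 and Reg4 at 8.73, all still called. With libraries scaled to an equal total, 80.7% of the genes called were higher in EC, against 65.3%, and the 5 Reg genes kept their direction and call. 

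**Figure D3:**
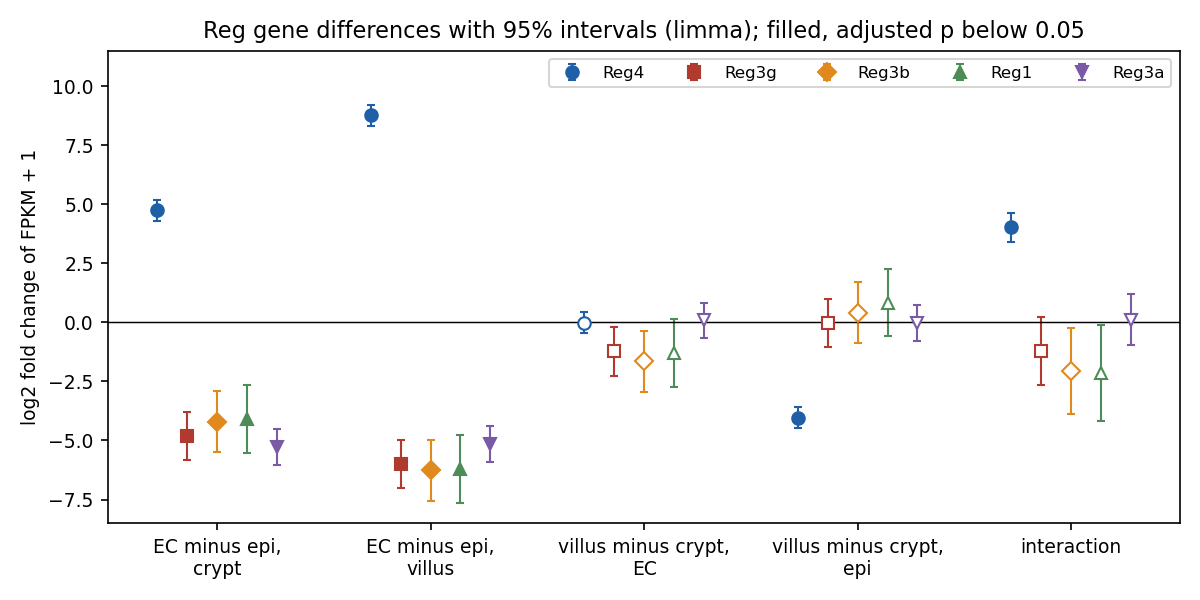
Log2 fold changes of FPKM + 1 for the 5 Reg genes in 4 comparisons and their interaction, with 95% intervals from limma; filled symbols passed an adjusted p below 0.05 and open symbols did not. Reg4 lies above 0 and the other 4 genes below 0 in both comparisons of EC with epi, and between sites only the fall of Reg4 in epi is filled.

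Between crypt and villus EC cells, 0 of the 5 genes were called with limma, where 26.5% of all tested genes were, 10.3% higher and 16.2% lower in the villus. At an unadjusted p below 0.05 there were 2, Reg3b (-1.65 log2 units, 95% interval -2.94 to -0.35, adjusted p = 0.0585) and Reg3g (-1.23, interval -2.25 to -0.21, adjusted p = 0.0722). With libraries scaled to an equal total, 24.5% of all genes called were higher in the villus, against 38.9%, and Reg3b and Reg3g were called lower (-1.86 and -1.44, adjusted p = 0.0209 and 0.0276). Both had a lower mean in the villus, 35.8 against 100.5 for Reg3b and 45.7 against 128 for Reg3g, and their libraries overlapped. Villus epi replicate 2 enters this comparison only through the shared spread. Without it, Reg3b and Reg3g were called lower in villus EC at the same differences (adjusted p = 0.00252 and 0.0364). Other single libraries decided calls here too: without crypt EC replicate 4 Reg3g was called (-1.69), without villus EC replicate 2 Reg1 (-1.91), and without villus EC replicate 3 Reg3b and Reg3g (adjusted p = 0.0355 and 0.0404). Reg1 differed by -1.28 (adjusted p = 0.196) and Reg3a by 0.08 (interval -0.68 to 0.84, adjusted p = 0.919).

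Between crypt and villus epi cells, 1 of the 5 genes was called, Reg4, which was lower in the villus, where 55.0% of all tested genes were called, 19.6% higher and 35.4% lower. With libraries scaled to an equal total, 24.9% of all genes called were higher in the villus, against 35.6%. Reg3g differed by -0.03 log2 units (95% interval -1.05 to 0.99, adjusted p = 0.966) and Reg3a by -0.03 (interval -0.79 to 0.73, adjusted p = 0.959). Reg3b was at 0.42 (interval -0.88 to 1.71, adjusted p = 0.584) and Reg1 at 0.84 (interval -0.60 to 2.28, adjusted p = 0.309). Without villus epi replicate 2, Reg3b was called higher in villus epi, at 1.15 (adjusted p = 0.0231), and Reg1 was at 1.35 and not called (adjusted p = 0.0723).

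The test of whether the difference between EC and epi depends on the site called 1 of the 5 genes, Reg4, where 42.9% of all tested genes were called, 26.9% higher and 16.0% lower. For Reg3b the difference was -2.06 ± 0.86 (adjusted p = 0.0651), for Reg1 -2.12 ± 0.95 (adjusted p = 0.0867), for Reg3g -1.20 ± 0.67 (adjusted p = 0.168) and for Reg3a 0.11 ± 0.50 (adjusted p = 0.882). Without villus epi replicate 2, 8563 of 13936 tested genes were called. Reg3b and Reg1 were then also called, at -2.80 and -2.64 (limma adjusted p = 0.000553 and 0.0157). The shortfall in EC of these 2 genes was then larger in the villus than in the crypt. Reg3g was called without crypt EC replicate 4 (-1.66), Reg1 without villus EC replicate 2 (-2.75) and Reg3b without villus EC replicate 3 (-2.42).

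The low levels of the 4 genes in EC libraries were set beside markers of other epithelial cell types. In crypt EC, Reg1 was at 5.46% of its crypt epi level, Reg3a at 1.82%, Reg3b at 5.57% and Reg3g at 4.18%. The median was 3.86% for 9 Paneth markers, 2.25% for 10 goblet markers and 7.88% for 8 villus enterocyte markers with at least 100 FPKM in crypt epi. In villus EC, the 4 genes were at 1.51%, 1.94%, 1.12% and 1.57% of the villus epi level. There the median was 1.10% for 8 goblet markers and 0.833% for 10 enterocyte markers. In the villus the 4 genes were above both medians, within wide ranges of 0.491% to 891% for goblet and 0.329% to 115% for enterocyte markers. In the crypt Reg3a was below each median, and Reg1, Reg3b and Reg3g lay between the Paneth and enterocyte medians. The part of carried-over RNA or cells in these values was not tested.

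**Figure D4:**
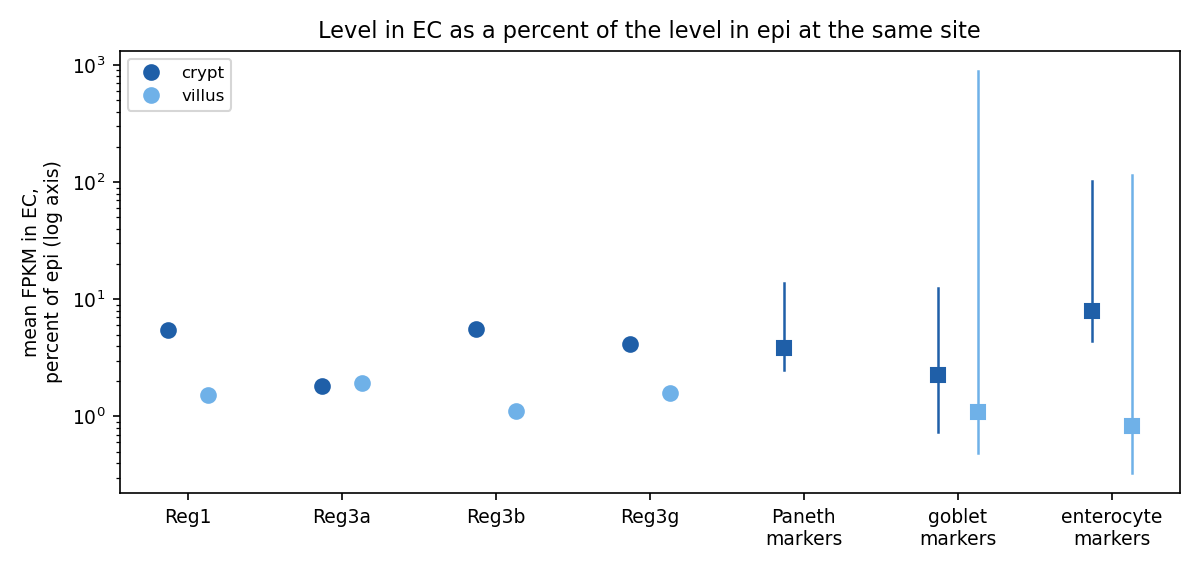
Mean FPKM in EC as a percent of the mean in epi at the same site (log axis), with circles for 4 Reg genes and squares with lines for the median and range over marker genes with at least 100 FPKM in epi. The 4 Reg genes lie between 1.12% and 5.57%; the upper end of the villus goblet range is Agr2, which was higher in EC there, and the Paneth list is left out for the villus, where 1 gene met the level.

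Within crypt EC, replicate 1 had the most Reg3g, at 274, and Reg3b, at 145, and the least Reg1, at 21.9. Its summed Paneth markers, at 7048, were the lowest (8157 to 10178 in the others), as were its goblet markers, at 2600 (3105 to 3872), and its enterocyte markers, at 436 (1131 to 1412). Its stem cell markers, at 1486, were the highest (944 to 1041 in the others). So was its sum over the stromal and endothelial list, at 233 (153 to 185). Of 4 tested genes of that list, 2 were called higher in crypt EC than in crypt epi, Vim (5.54 log2 units) and Pecam1 (3.48). The other 2 were not called, and 23.2% of all tested genes were higher. The sum is thus not specific to stromal or endothelial cells here. In crypt epi, replicate 3 had the most Reg3g (5156) but the least Reg1 (243) and Reg4 (1292) of its group. Its enterocyte markers summed to 2961, against 8977 to 9088 in the other 3 libraries. The cause of these differences between libraries was not tested.

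The balance of Reg3b to Reg3g overlapped between all 4 groups. The ratio of their FPKM was 0.738, 0.658, 0.391 and 0.801 in crypt epi and 0.808, 0.299, 1.48 and 1.47 in villus epi. It was 0.531, 1.10, 0.872 and 1.61 in crypt EC and 0.590, 1.195, 0.810 and 0.425 in villus EC. On the log2 scale with 1 added to each value, villus epi was above crypt epi by 0.45 (exact permutation test, two-sided, p = 0.543, n = 4 and 4). Villus EC differed from villus epi by -0.26 (exact permutation test, p = 0.714, n = 4 and 4). The smallest p this design allows is 0.0286. The first difference was 0.95 without villus epi replicate 2 (exact permutation test, p = 0.0571, the smallest possible with 3 against 4).

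After removing group means, Reg1, Reg3a and Reg3b moved together from library to library, as a description over 16 libraries that share their scaling. The correlation of deviations was 0.74 for Reg1 and Reg3b, 0.65 for Reg3a and Reg3b, 0.64 for Reg3b and Reg3g and 0.63 for Reg1 and Reg3a. It was 0.11 for Reg1 and Reg3g. These 5 values were 0.68, 0.70, 0.64, 0.61 and -0.01 once villus epi replicate 2 was left out. Reg4 had 0.18 with Reg1 and -0.47 with Reg3g.

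The genes most like each member over the 16 libraries were ranked by Pearson's r of log2(FPKM + 1) among tested genes with at least 5 FPKM in their highest group. The 4 groups dominate these values, so they describe a group pattern and carry no test. For Reg4 the closest were Slc25a35 (r = 0.995), a mitochondrial carrier gene, Gpat4 (0.993), an acyltransferase gene of glycerolipid synthesis, Prkacb (0.993), which encodes a catalytic subunit of protein kinase A, Sgcb (0.992) and Dnajc18 (0.992). Slc25a35 stood at 771 in crypt EC, 562 in villus EC, 73.1 in crypt epi and 10.4 in villus epi, the same order of epi groups as Reg4. For Reg3g they were Apol10a (0.988), Vstm5 (0.985), the quinone reductase gene Nqo1 (0.984), the purine receptor gene P2ry1 (0.983) and the desmosome gene Dsc2 (0.982). Apol10a stood at 143 in crypt epi and 220 in villus epi, against 4.59 and 0.761 in the EC groups.

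For Reg3b the closest genes were Nqo1 (0.987), the arginase gene Arg2 (0.987), the sphingosine kinase gene Sphk1 (0.987), the monoamine oxidase gene Maoa (0.986) and Ugt1a7c (0.985). Reg1 had Gstm3 (0.985) and Arg2 (0.981) first, followed by the peptidase gene Enpep (0.978), Ugt1a7c (0.977) and Gsta4 (0.976). Gstm3, Gsta4 and Ugt1a7c encode conjugating enzymes of detoxification. For Reg3a they were Ankrd40cl (0.985), Cisd3 (0.984), the cytokine gene Il18 (0.982), the carboxylesterase gene Ces1f (0.980) and the chloride and bicarbonate exchanger gene Slc26a3 (0.978).

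The remaining 2 Reg genes of the chromosome 6 cluster are described for comparison. Reg2 was at 15.8 to 23.3 in crypt EC, 17.6 to 22.2 in villus EC and 7.81 to 10.8 in crypt epi. It was at 16.0 to 97.1 in villus epi, where replicate 2 held the 97.1 and the other 3 at most 21.5. It was higher in villus than in crypt epi (log2 fold change 1.52, limma adjusted p = 0.00418, and 0.95 without villus epi replicate 2, adjusted p = 6.06e-05). Crypt EC and crypt epi differed by 0.89 (adjusted p = 0.0819), which was called without villus epi replicate 2 (adjusted p = 6.59e-05). Villus EC and villus epi differed by -0.52 (adjusted p = 0.266) and, without that library, by 0.05 (adjusted p = 0.806). Reg3d was low throughout, at most 3.40, and listed at 0 in all 4 villus EC libraries; it was called lower in EC in the crypt (-0.94, adjusted p = 0.00441) and in the villus (-1.73, adjusted p = 1.18e-05).

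Genes that induce or receive Reg proteins formed a list of 14, of which 10 were tested. In the crypt, 4 of 10 were higher in EC and 0 lower (median 0.33 log2 units, against 0.05 over all genes, of which 23.2% were higher and 20.0% lower): Tlr2 (2.07 log2 units), a receptor of bacterial lipoproteins, Il22ra1 (1.33), the ligand-binding chain of the interleukin 22 receptor, Jak1 (1.00), the kinase it signals through, and Stat3 (0.70). In the villus, 2 were higher in EC, Tlr2 (1.44) and Extl3 (0.85), and 4 lower, Il22ra1 (-2.66, limma adjusted p = 2.46e-05), Irak4 (-1.38), Stat3 (-1.04) and Il10rb (-0.85). The median was -0.58, against 0.33 over all genes, of which 40.6% were higher and 21.6% lower. Without villus epi replicate 2, 7 were lower in the villus and Irak4 was at -0.56, and in the crypt 5 were higher and 1 lower. Of 13936 genes tested without it, 3692 were lower in the villus, and in the crypt 4703 were higher and 4291 lower. Il22ra1 was at 14.2 to 17.7 in crypt EC and at 4.74 to 6.57 in crypt epi, without overlap. It was at 0.568 to 2.34 in villus EC and at 3.71 to 22.3 in villus epi, where replicate 2 was the lowest. Its difference between EC and epi changed with the site by -3.99 log2 units (adjusted p = 3.67e-05). Leaving out villus epi replicate 2 put this at -4.51 and the villus difference at -3.18. Il22ra1 was thus higher in EC in the crypt and lower in the villus, and Reg3g and Reg3b were lower in EC at both sites. The part of Il22ra1 in the Reg levels was not tested. Extl3, a proposed Reg receptor, had means of 2.38 and 2.68 in crypt and villus EC and of 2.73 and 1.18 in crypt and villus epi. It was called in the villus (0.85, adjusted p = 0.0113, and 0.59 without villus epi replicate 2, adjusted p = 0.0227) and not in the crypt (-0.12, adjusted p = 0.759).

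A list of microbiota-induced and antimicrobial genes of the epithelium was also counted. Whether microbes or interleukin 22 induced them in these cells was not tested. In the crypt, 11 of 17 tested were lower in EC and 1 higher, where 20.0% of all genes were lower and 23.2% higher (median -1.54 log2 units, against 0.05 over all genes). The largest differences were those of Retnlb (-5.76), a goblet cell protein that acts on bacteria, Sprr2a2 (-3.78), Il18 (-3.54) and the chemokine gene Ccl25 (-2.89). In the villus, 11 of 17 were lower and 2 higher, where 21.6% of all genes were lower and 40.6% higher (median -2.64, against 0.33). Without villus epi replicate 2, 10 of 16 were lower, where 3692 of all 13936 tested genes were. The largest were those of Sprr2a2 (-6.74), Ccl25 (-5.68), Sprr2a3 (-5.50) and Ubd (-5.27). The genes higher in EC, named after their values were seen, were the fucosyltransferase gene Fut2 at both sites (2.22 and 3.22) and Lypd8 in the villus (1.24). The Sprr2a genes are near-identical copies, so their separate values are uncertain.

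Lectins outside the Reg family formed a list of 13, of which 11 were tested. In the crypt, 9 of 11 were lower in EC and 1 higher, where 20.0% of all genes were lower and 23.2% higher (median -1.55, against 0.05), with the goblet lectin gene Zg16 at -7.23, the intelectin gene Itln1 at -4.83, the galectin gene Lgals3 at -3.98 and Clec2h at -3.70; the higher one was Clec2d (1.33). In the villus, 6 of 11 were lower and 2 higher, where 21.6% of all genes were lower and 40.6% higher (median -4.08, against 0.33). Without villus epi replicate 2, 7 were lower, where 3692 of all 13936 tested genes were. The list was led by Mbl2 (-8.23), Zg16 (-7.20), Clec2h (-6.98) and Lgals3 (-6.61), while Lgals2 (1.78) and Clec2d (0.76) were higher. Between the sites in epi, Itln1 was lower in villus than in crypt epi (-8.19 log2 units, limma adjusted p = 3.68e-11) and Lgals3 higher (3.62, adjusted p = 5.92e-08), while Reg3g and Reg3a were both at -0.03.

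Reg genes are also products of pancreatic acinar cells, so acinar markers were examined. Of 10 listed, 9 had a row and 2 passed the filter. Cela1 had group means of 16.7 to 43.5, highest in villus EC. The other 8 were at most 3.86 in any library, the value of Cela2a in villus EC replicate 3. The part of acinar cells or their RNA in the Reg levels was not tested.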

How the data were processed

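Gene-level values were used as the authors deposited them, labelled FPKM. Per the submitters' processing notes, the tools were bcl2fastq 2.20, kallisto and sleuth with mm10. The sources used here do not give the scaling between libraries or the annotation. Per the labels' protocols, full-length cDNA was amplified from sorted cells. The depth per library is unknown, so no counting interval is given.

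Values were taken as log2(FPKM + 1) after the filter (14089 genes kept, 5983 left out). The test was that of limma 3.58.1 under R 4.3.3 (trend on the mean, two-sided), fitted once to all 16 libraries by group without a replicate block, and adjusted over all tested genes of a contrast. The fit was tested on simulated data. Exact permutation tests used scipy 1.17.1, and figures matplotlib 3.10.9. Alternatives covered the pseudocount, filter, scaling, library weights, blocks, the groups in the fit and each library left out; counts of gene lists without villus epi replicate 2 were added after seeing the data.

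Named genes were the 5 Reg genes, the 5 genes most like each, the called genes of each list that differed most (up to 4), and Extl3, Il22ra1, Stat3, Reg2 and Reg3d. Members and lists were chosen with earlier results of these data known. Positions are from GENCODE M21 and promoter sequences from RefSeq (GRCm38.p6).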

Additional observations from a re-analysis of the deposited data

Results flagged for a closer look

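Of 20 sets of 4 libraries (5 Reg genes in 4 groups), 3 had a library set apart from the other 3 by more than Dixon's 95% criterion, where chance sets apart about 1 in 20. All 3 concern Reg3g: crypt epi replicate 3 was high at 5156, villus EC replicate 3 was high at 78.5, and villus epi replicate 2 was low at 1740. The difference between EC and epi depended on the site for Reg4, by 4.02 log2 units (limma, test of the interaction).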

How the results depend on the processing

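All 5 Reg genes kept their direction and call in both comparisons of EC with epi under all 26 alternatives, as did Reg4 between the sites in epi (26) and in the interaction (25). The remaining calls depended on the setting. Between the sites in EC, 0 of 5 genes were called as reported, 2 (both lower) with libraries scaled to an equal total, 1 (lower) with limma arrayWeights, 1 (lower) with only the 2 groups compared, and 0 to 2 (all lower) when 1 library was left out. In epi, arrayWeights called 3 (2 higher), and leaving out 1 library gave 1 to 2 calls (0 to 1 higher). In the interaction, arrayWeights called 3 (2 lower), and leaving out 1 library gave 1 to 3 calls (0 to 2 lower). Over all 14089 tested genes, arrayWeights called 9632 in epi and 8995 in the interaction, against 7755 and 6050 as reported. Without villus epi replicate 2 these numbers were 9382 and 8563 of 13936. Single libraries decided some of the Reg calls. Without crypt EC replicate 4, Reg3g was called in EC (-1.69) and in the interaction (-1.66). Without villus EC replicate 2, Reg1 was called in EC (-1.91) and in the interaction (-2.75). Without villus EC replicate 3, Reg3b and Reg3g (-1.52) were called in EC and Reg3b in the interaction (-2.42). The cause was not tested.

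Differences that were near 0 and not called changed sign. With median-ratio scaling Reg4 in EC was at 0.0523, Reg3a and Reg3g in epi at 0.16 and 0.16, and Reg3a in the interaction at -0.0460. Scaling to an equal total put Reg3a in EC at -0.0400. With arrayWeights, Reg3a and Reg3g in epi were at 0.21 and 0.30. Leaving out 1 library gave -0.20 to 0.10 for Reg4 in EC, -0.17 to 0.41 for Reg3a in EC, -0.16 to 0.11 for Reg3a and -0.15 to 0.25 for Reg3g in epi, and -0.14 to 0.43 for Reg3a in the interaction. The Reg3b to Reg3g difference between villus EC and villus epi ran from -0.76 to 0.0082 in this way.

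Libraries of different groups with the same number were not alike. The correlation of deviations had a median of -0.035 over 24 pairs with the same title number and -0.097 over 10 pairs with the same library number. Such values cannot show which libraries came from the same mouse. A replicate block by title number or by library number changed no call of a Reg gene; with the block by library number Reg3a in EC was at -0.0636 and 1841 genes in all were called in EC, against 3736. Other settings also moved that number, to 7255 (arrayWeights), 6667 (only the 2 groups compared) and 6542 (without villus epi replicate 2), and in the crypt from 6088 to 9928 (arrayWeights) and 9204 (only the 2 groups compared). Scaling to an equal total shifted the median of all genes from 0.051 to 0.507 in the crypt, from 0.328 to 0.798 in the villus, from -0.052 to -0.232 in EC and from -0.186 to -0.376 in epi. Read depth is unknown, so values near 1 FPKM, such as Reg3a in EC, have no stated precision beyond the spread of 4 libraries.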
